A study of Mus musculus with 112 samples.

Results

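The lncRNAs described here are mouse genes that still carry the name of a numbered RIKEN cDNA clone. They are the entries of the lncRNA table of the antisense experiment whose symbol starts with a digit and ends in Rik. Clones whose number prefix is that of the testis libraries were left out, as were 1110038B12Rik, 2900097C17Rik and 5031425E22Rik. This rule uses only the symbol, and it found 126 of 1279 lncRNAs. All 126 also had an entry in the table of total RNA from the degron line, 96 did so among the 1246 lncRNAs of the polyA RNA table, and 60 did so among the 492 lncRNAs of the table of newly made RNA.

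A clone name is a provisional name. It records the cDNA library and well in which a transcript was first isolated, and it stays until a gene is given a name for what it does. U1 snRNP is the RNA and protein particle that pairs with the 5′ splice site of a nascent transcript, and it also shields transcripts from premature cleavage and polyadenylation. U2 snRNP binds the branch point at the next step of splicing. Many lncRNAs stay bound to chromatin after they are made, whereas most mRNAs are released and exported. The question the study asked was whether U1 snRNP takes part in holding noncoding RNA on chromatin.

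All cells were mouse embryonic stem cells of the 46C line on a 129/Ola background, grown with fetal calf serum and leukemia inhibitory factor. In the antisense experiment, cells were transfected for 2 h with an antisense morpholino oligonucleotide (AMO), which blocks the RNA of the particle it pairs with. The groups were U1 AMO at 75 µM, U2 AMO at 75 µM, U1 and U2 AMO together at 50 µM, and a scrambled control AMO at 75 µM. In the depletion experiment, the cells were SNRNP70-AID cells made from the same line, in which the U1 protein SNRNP70 carries an auxin-inducible degron, and 500 µM of the auxin IAA was given for 4 h or was not given (0 h). RNA came from chromatin, cytoplasm, nucleoplasm and whole cells, with 3 libraries per group, except that 2 control AMO whole cell libraries could be used. PolyA RNA was measured on chromatin and in whole cells of the same line. Newly made RNA was measured by SLAM-seq, in which the nucleoside 4sU marks new transcripts with T-to-C changes. For it, IAA was given for 2 h and then for 3 h together with 4sU, against 4sU without IAA. Nothing in the labels says that replicates were separate cultures, so the p-values measure the spread between these libraries, which may be technical. For newly made RNA in cytoplasm and nucleoplasm, the limma p-values rest on spread pooled over lncRNAs of like level, hardly on each lncRNA's own.

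The 13 listed lncRNA markers of embryonic stem cells all had signal in whole cells. Their means ranged between 0.615 FPKM (Platr6) and 62.8 FPKM (Lncenc1) in control AMO cells, and between 1.67 FPKM (Platr6) and 116 FPKM (Lncenc1) in degron cells without IAA. Of 11 listed lncRNAs of differentiated cells, 8 were in the tables, with Meg3 the highest at 15.1 and 21.3 FPKM in the same whole cell groups. Snrnp70 is not among the lncRNAs, so its depletion was not checked here. FPKM values give no read depth, so no counting interval is given for them, and the SLAM-seq libraries held between 24927 and 227237 converted reads on lncRNAs.

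The promoters of 5 members that the results below turn on are shown for reference. They were taken from RefSeq on GRCm38.p6, 5′ to 3′ on the strand of the gene, each with 250 bases before and 50 bases after its start. Capitals mark the GC box (GGGCGG) and the CCAAT box (CCAAT), searched on both strands; the TATA box (TATAAA) and the letters GGTAAG, part of the 5′ splice site sequence that pairs with U1 RNA, were also searched. Over 32851 mouse promoter windows of the same length, the GC box was found in 35.7%, the CCAAT box in 37.4%, TATAAA in 13.6% and GGTAAG in 9.67%.

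5430416N02Rik lies on chr5:100420842-100429535, and the window is chr5:100429486-100429785 on the minus strand. It was the most abundant member on chromatin in the antisense experiment, and it is shown with 2 GC boxes and 2 CCAAT boxes.
5430416N02Rik: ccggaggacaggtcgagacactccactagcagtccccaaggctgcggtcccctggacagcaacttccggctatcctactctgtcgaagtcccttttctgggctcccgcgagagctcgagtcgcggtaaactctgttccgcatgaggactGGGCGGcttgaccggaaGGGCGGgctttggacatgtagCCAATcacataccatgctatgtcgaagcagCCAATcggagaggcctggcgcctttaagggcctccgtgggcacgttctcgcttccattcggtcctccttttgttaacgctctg

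1810026B05Rik is listed by RefSeq as Chaserr, the lncRNA next to Chd2 that is known in mice to restrain the chromatin remodeller CHD2. It lies on chr7:73539798-73558395, and the window is chr7:73558346-73558645 on the minus strand, with 2 GC boxes and 1 CCAAT box.
1810026B05Rik: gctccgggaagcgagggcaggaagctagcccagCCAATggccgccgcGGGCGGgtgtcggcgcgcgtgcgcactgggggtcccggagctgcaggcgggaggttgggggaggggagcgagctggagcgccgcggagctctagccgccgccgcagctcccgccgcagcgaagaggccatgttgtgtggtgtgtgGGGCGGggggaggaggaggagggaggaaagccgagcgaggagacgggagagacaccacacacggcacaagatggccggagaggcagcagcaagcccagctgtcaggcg

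2500002B13Rik lies on chr8:57487963-57510262, head to head with Sap30, a subunit of a histone deacetylase complex whose start is 103 bases away on the other strand. The window of its most upstream start is chr8:57487713-57488012 on the plus strand, with 1 GC box and no CCAAT box.
2500002B13Rik: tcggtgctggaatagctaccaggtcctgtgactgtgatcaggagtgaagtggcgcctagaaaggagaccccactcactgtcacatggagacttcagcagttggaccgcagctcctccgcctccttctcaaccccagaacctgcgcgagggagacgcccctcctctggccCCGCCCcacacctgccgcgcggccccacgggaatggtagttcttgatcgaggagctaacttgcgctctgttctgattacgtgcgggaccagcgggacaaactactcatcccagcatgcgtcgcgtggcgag

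3110056K07Rik lies on chr12:70991615-71015823 and overlaps Psma3, a proteasome subunit gene on the other strand, and Arid4a. The window is chr12:71015774-71016073 on the minus strand, and it held 6 CCAAT boxes, each on the opposite strand (ATTGG), and no GC box.
3110056K07Rik: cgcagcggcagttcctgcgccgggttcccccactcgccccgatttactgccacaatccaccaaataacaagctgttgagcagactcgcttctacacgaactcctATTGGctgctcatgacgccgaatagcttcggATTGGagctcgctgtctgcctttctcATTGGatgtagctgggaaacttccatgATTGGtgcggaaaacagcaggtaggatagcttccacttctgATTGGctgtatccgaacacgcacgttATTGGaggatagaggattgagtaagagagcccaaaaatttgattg

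2810001G20Rik lies on chr11:64079484-64083259. Its start is 12 bases away on the other strand from that of Cox10, an enzyme of heme A synthesis, so the window of chr11:64079234-64079533 on the plus strand holds both starts, with 1 GC box and no CCAAT box.
2810001G20Rik: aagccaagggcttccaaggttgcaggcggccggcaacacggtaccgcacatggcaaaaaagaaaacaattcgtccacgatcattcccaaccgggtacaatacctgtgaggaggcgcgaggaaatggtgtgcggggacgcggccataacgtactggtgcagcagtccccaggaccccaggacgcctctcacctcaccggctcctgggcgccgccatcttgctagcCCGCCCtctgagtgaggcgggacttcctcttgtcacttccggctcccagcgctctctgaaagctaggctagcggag

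None of the 5 windows held TATAAA or GGTAAG. RefSeq matched 94 of the 126 members, 90 by symbol and 4 by an older name. Of the 90, 85 are annotated as lncRNA and 4 as protein-coding (1810010H24Rik, 1810058I24Rik, 6330403K07Rik and 9930104L06Rik). A promoter entry was matched by symbol for 77 members, too few for a statement on the whole set, so length, base composition and position are given for single members only. Snord genes lie inside 2700038G22Rik (Snord93) and 2410006H16Rik (Snord49a, Snord49b and Snord65), and a miRNA gene lies inside 2900076A07Rik (Mir1839). Other snoRNA genes overlap 9330159M07Rik (LOC115487268) and 9430037G07Rik (LOC115487271), and a miRNA gene overlaps 2610307P16Rik (Mir6368). The strand setting of the authors' counting is not given in the sources used here, so signal of a member and of a gene that overlaps it, such as 3110056K07Rik and Psma3, cannot be told apart.

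Before U1 snRNP was perturbed, the numbered-clone Rik lncRNAs were spread over chromatin and the soluble fractions. The measure is the log2 level on chromatin minus the mean of the log2 levels in cytoplasm and nucleoplasm. Its median was 0.34 over the 126 members against 1.10 over the 1277 lncRNAs tested in control AMO cells, and 0.74 against 1.87 in degron cells without IAA. In control AMO cells 45 members were higher on chromatin (limma, adjusted p under 0.05), 35.7% of them, against 59.3% of all lncRNAs tested. On the other side, 21 members (16.7%) were lower on chromatin, against 9.95% of all lncRNAs tested. In degron cells without IAA the counts were 63 higher and 22 lower members, against 68.8% and 11.2% of all lncRNAs tested. The lncRNAs named Gm and a number, the largest group of the table, had medians of 1.40 and 2.44, and the lncRNAs with other names had medians of 0.27 and 0.62. No such median is given for the testis-clone and other Rik lncRNAs, so the lower medians are not shown to be particular to the members. After centring on library medians, 16 members were higher and 66 lower in control AMO cells and 19 higher and 76 lower in degron cells, since centring sets the typical lncRNA to the same level in every fraction. Over all lncRNAs, centring gave 28.7% higher and 31.5% lower in control AMO cells and 36.2% and 38.6% in degron cells. Fraction markers did not all follow their names. In control AMO cells the chromatin marker Kcnq1ot1 had 6.55 FPKM on chromatin against 0.70 FPKM in cytoplasm. Malat1, another, had 831 against 1348 FPKM. The soluble markers Gas5 (388 against 283 FPKM) and Dancr (23.7 against 18.3 FPKM) were higher on chromatin. In degron cells without IAA, Malat1 (1286 against 274 FPKM) and Gas5 (282 against 54.9 FPKM) were higher on chromatin. The measure alone thus does not place an RNA.

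**Figure D1:**
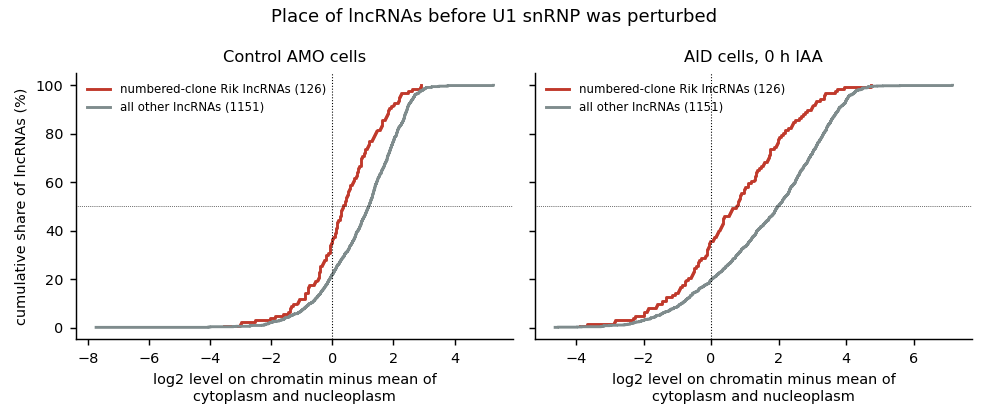
Cumulative share of lncRNAs (%) against the log2 level on chromatin minus the mean log2 level in cytoplasm and nucleoplasm, for the 126 numbered-clone Rik lncRNAs (red) and the other 1151 lncRNAs (grey), in control AMO cells and in degron cells without IAA. The red curve lies left of the grey one over most of the range, with medians of 0.34 and 0.74 for the members.

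2700078F05Rik led the members named by rule on the chromatin side. The scarcer 6720475M21Rik had a similar difference in control AMO cells (2.89). 2700078F05Rik had 11.7, 14.6 and 15.0 FPKM on chromatin of control AMO cells, against 1.63, 2.41 and 2.51 FPKM in cytoplasm and 1.46, 1.20 and 1.28 FPKM in nucleoplasm. Each chromatin library was above each soluble library. The log2 difference was 2.88 ± 0.27 (SE; adjusted p = 3e-10) and in degron cells 4.73 ± 0.16 (adjusted p = 4e-13).

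4632427E13Rik followed, with 16.04, 14.5 and 17.9 FPKM on chromatin of control AMO cells, against 2.52, 2.50 and 4.35 FPKM in cytoplasm and 2.22, 1.80 and 1.98 FPKM in nucleoplasm. Its log2 difference was 2.62 ± 0.20 in control AMO cells and 3.21 ± 0.17 in degron cells. 2610037D02Rik (2.21 and 3.03), 6430511E19Rik (1.78 and 3.36) and 4732416N19Rik (1.97 and 2.06) were also on the chromatin side in both lines.

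The soluble side was led by 2010204K13Rik on chromosome X. It had 1.40, 1.75 and 1.16 FPKM on chromatin of control AMO cells, against 35.9, 24.0 and 39.9 FPKM in cytoplasm and 12.6, 8.86 and 10.7 FPKM in nucleoplasm, a log2 difference of -3.54 ± 0.33 (adjusted p = 3e-10). 1810058I24Rik, which encodes a mitochondrial micropeptide, had a difference of -3.02 ± 0.19, and 2810001G20Rik one of -2.55 ± 0.27. In degron cells the same measure was -3.90, -3.66 and -1.63 for these members. 2310009A05Rik, listed by RefSeq as Pigbos1, another gene for a mitochondrial micropeptide, had -1.17 in control AMO cells and -1.60 in degron cells.

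The 10 most abundant members on chromatin of the antisense experiment averaged between 6.54 FPKM (2900060B14Rik) and 29.6 FPKM (5430416N02Rik) over all its chromatin libraries. The others near the top were 6720427I07Rik at 25.4 FPKM, 1810026B05Rik at 21.4 FPKM and 2700078F05Rik at 14.2 FPKM. The median member had between 1.59 and 1.80 FPKM in the control AMO chromatin libraries, so most members were scarce.

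U1 AMO lowered many of the numbered-clone Rik lncRNAs on chromatin. Of 119 members tested, 66 fell and 3 rose (limma, adjusted p under 0.05), against 51.8% lower and 5.1% higher among all 1256 lncRNAs tested. The share of members that fell was 55.5%, near that background. The median log2 change was -0.89 over the members and -0.80 over all lncRNAs tested. In bulk fractions, fewer cells that contain an RNA and less of that RNA per cell cannot be told apart. With each library centred on its median, which takes out this common fall, 8 members were lower and 19 were higher than the typical lncRNA. These were 6.72% and 15.97% of the members, against 11.5% lower and 18% higher among all lncRNAs centred the same way. Leaving out 1 library in turn gave between 59 and 66 called members.

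2900076A07Rik had the largest named fall. It had 2.41, 3.07 and 1.91 FPKM on chromatin after U1 AMO, against 10.7, 9.17 and 11.3 FPKM after control AMO. No library of one group reached the other, and the log2 change was -2.01 ± 0.19 (adjusted p = 1.77e-05). It fell in the other fractions too, by 1.46 on the log2 scale in cytoplasm, 1.66 in nucleoplasm and 1.12 in whole cells.

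2500002B13Rik, the head-to-head neighbour of Sap30, had 0.94, 2.13 and 1.6 FPKM on chromatin after U1 AMO, against 5.86, 5.78 and 7.96 FPKM after control AMO. The groups were apart, with a log2 change of -1.98 ± 0.30 (adjusted p = 0.000233). In cytoplasm it had 5.11, 5.44 and 5.40 FPKM after U1 AMO, against 14.7, 11.2 and 14.5 FPKM after control AMO, a log2 change of -1.30 ± 0.22. Nucleoplasm (-1.68) and whole cells (-1.16) gave the same direction.

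9430037O13Rik fell on chromatin and in whole cells. It had 0.50, 0.44 and 0.97 FPKM on chromatin after U1 AMO, against 2.76, 2.20 and 3.29 FPKM after control AMO, a log2 change of -1.86 ± 0.27 (adjusted p = 0.000177). After U2 AMO it had 2.84, 4.00 and 3.5 FPKM there, which overlap the control values. The difference between U1 AMO and U2 AMO was -2.17 ± 0.27 (adjusted p = 0.0001005).

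8430429K09Rik (-1.88 ± 0.28), 2410021H03Rik (-1.88 ± 0.31), 9230114K14Rik (-1.60 ± 0.25), 2700038G22Rik (-1.53 ± 0.34) and 4732416N19Rik (-1.53 ± 0.21) completed the 8 largest named falls. With the libraries centred, 9230114K14Rik (adjusted p = 0.0619) and 2700038G22Rik (adjusted p = 0.0856) no longer passed, and the other 6 still did. 2700038G22Rik, the host of Snord93, had 3.43, 3.91 and 6.16 FPKM on chromatin after U1 AMO, against 9.61, 15.9 and 14.4 FPKM after control AMO. Its groups did not overlap. 8430429K09Rik overlaps Rnf185, 2410021H03Rik overlaps Epb41l3, and 4732416N19Rik overlaps Ergic2 and Tmtc1, all protein-coding genes on the other strand. For these members the signal of the lncRNA and of the overlapping gene cannot be told apart.

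**Figure D2:**
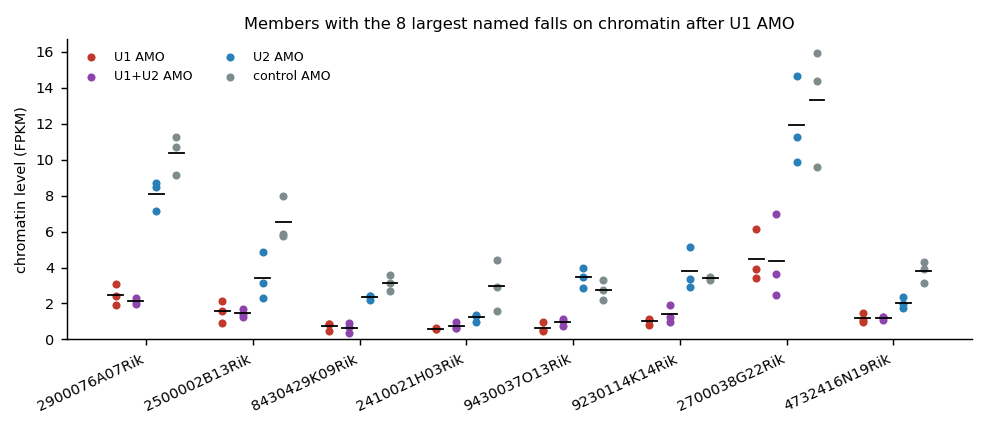
Chromatin level (FPKM) of the 8 members with the largest named falls after U1 AMO; each point is 1 of 3 libraries of U1 AMO, U1+U2 AMO, U2 AMO and control AMO, and bars are means. U1 AMO and control AMO libraries do not overlap for any of the 8, and 2900076A07Rik lies between 1.91 and 3.07 FPKM after U1 AMO and between 9.17 and 11.3 FPKM after control AMO.

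The abundant members did not all fall. 5430416N02Rik had 18.1, 14.3 and 17.4 FPKM on chromatin after U1 AMO, against 37.3, 31.4 and 36.9 FPKM after control AMO, a log2 change of -1.08 ± 0.15 (adjusted p = 0.000163). Its cytoplasmic values were 131, 95.9 and 93.6 FPKM after U1 AMO, against 88.7, 65.2 and 77.3 FPKM after control AMO, all above the control values, and this difference did not pass the test. 1810026B05Rik and 6720427I07Rik did not pass on chromatin, where 6720427I07Rik had 30.0, 20.1 and 31.3 FPKM after U1 AMO, against 25.5, 18.6 and 26.9 FPKM after control AMO.

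Fewer members were called outside chromatin after U1 AMO. In cytoplasm 7 members fell and 1 rose of 126 tested, against 3.38% and 3.95% of all lncRNAs tested. Those named by rule were 6330410L21Rik, 2900076A07Rik, 5530601H04Rik and 2410006H16Rik among the falls and 6330403K07Rik, which RefSeq annotates as protein-coding, as the rise (1.07 ± 0.24). 5530601H04Rik on chromosome X had 3.67, 4.42 and 3.09 FPKM in cytoplasm after U1 AMO, against 12.2, 7.19 and 10.4 FPKM after control AMO, and its groups did not overlap. With only U1 AMO and control AMO in the fit, 6330403K07Rik (adjusted p = 0.0729) and 2410006H16Rik (adjusted p = 0.0577) did not pass. Centring gave counts of 8 lower and 3 higher members, against 3.54% and 4.83% of all lncRNAs. Without control AMO cytoplasm replicate 1, control AMO replicate 3 or U1 AMO replicate 3, 3 members in all were called.

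In nucleoplasm 6 members rose and 5 fell of 120 tested after U1 AMO, against 10.5% and 3.68% of all lncRNAs tested. The largest rise was that of 1810026B05Rik (Chaserr). It had 17.3, 12.96 and 14.7 FPKM in nucleoplasm after U1 AMO, against 6.26, 3.61 and 3.53 FPKM after control AMO, a log2 change of 1.74 ± 0.29 (adjusted p = 0.000779). The groups did not overlap. 6720427I07Rik rose by 1.40 ± 0.35, 4633401B06Rik by 0.95 ± 0.21 and 2610037D02Rik by 0.95 ± 0.29, all with separate groups. The named falls were 2500002B13Rik (-1.68), 2900076A07Rik (-1.66), 5530601H04Rik (-1.09) and 6430511E19Rik (-0.84). With only both groups in the fit, 2610037D02Rik (adjusted p = 0.0823) and 6430511E19Rik (adjusted p = 0.102) did not pass. After centring, 6 members were higher and 12 lower, against 11.5% and 10.2% of all lncRNAs. Without control AMO nucleoplasm replicate 3, 5 members in all were called.

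In whole cells 14 members fell and 2 rose of 124 tested, against 7.19% and 6.24% of all lncRNAs tested, and centring gave 12 lower and 5 higher, against 4.64% and 8.15% of all. The named falls were 5530601H04Rik (-1.54), 2700038G22Rik (-1.47), 9330185C12Rik and 2500002B13Rik (-1.16), and the rises were 2700078F05Rik (0.77 ± 0.17) and 1810026B05Rik (0.77 ± 0.22). 2700078F05Rik had 6.54, 7.0 and 6.26 FPKM in whole cells after U1 AMO, against 3.22 and 4.42 FPKM after control AMO. With only both groups in the fit the adjusted p was 0.0574 for the 2700078F05Rik rise and 0.103 for the 1810026B05Rik rise. The control group had 2 libraries here, and 4 members in all were called without control AMO whole cell replicate 1 and 10 without replicate 2.

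Fewer members changed after U2 AMO. On chromatin 12 of 119 members fell and 0 rose, against 5.02% and 2.79% of all lncRNAs tested. The replicate numbers pair the libraries on chromatin and in nucleoplasm of this experiment, and with the replicate as a block 25 members in all were called (21 lower and 4 higher), against 9.55% lower and 5.49% higher among all lncRNAs. After centring, 7 were lower and 3 higher, against 3.74% and 7.96% of all. Without control AMO chromatin replicates 1 and 3, taken out singly, 2 and 6 members were called, and without U2 AMO replicates 1 and 3 the counts were 5 and 4.

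2810405F17Rik had the largest named fall after U2 AMO, with 0.65, 1.35 and 1.24 FPKM on chromatin, against 3.63, 2.78 and 3.49 FPKM after control AMO (log2 change -1.49 ± 0.25, adjusted p = 0.00429). It fell by a like amount after U1 AMO (-1.29), and both comparisons share the control libraries. 2010110E17Rik (-1.03), 2310009A05Rik (-0.90), 4732416N19Rik (-0.84) and 2900052L18Rik (-0.84) were the other named falls. 2010110E17Rik had 1.67, 2.31 and 2.86 FPKM on chromatin after U1 AMO, against 1.10, 1.57 and 0.96 FPKM after U2 AMO, and was higher in the U1 AMO group by 0.81 ± 0.26 (adjusted p = 0.0259).

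In nucleoplasm U2 AMO raised 4 of 120 members and lowered 0, against 19.4% higher among all lncRNAs tested. The median log2 change was 0.27 over the members and 0.45 over all lncRNAs tested. 5430416N02Rik had 45.5, 31.9 and 38.6 FPKM after U2 AMO, against 15.7, 6.81 and 11.5 FPKM after control AMO, a log2 change of 1.82 ± 0.33 (adjusted p = 0.00145). 1810026B05Rik rose there by 1.20 ± 0.29. After centring, 2 members were higher and 7 lower, against 8.32% and 3.24% of all. With the replicate block 7 members rose and 0 fell, against 23.2% and 0.0876% of all; without control AMO replicate 1 the count was 7, and without U2 AMO replicate 1 it was 2. In cytoplasm 3 of 126 members fell and 0 rose (0.886% and 0.403% of all lncRNAs tested). They were 2410021H03Rik, 1600020E01Rik and 2500002B13Rik, and leaving out any 1 of the 6 libraries left 0 or 1 call. Centring left 1 lower and 0 higher, against 0.483% and 0.564% of all.

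The direct comparison of U1 AMO with U2 AMO on chromatin was made within 1 fit. Of 119 members, 41 were lower and 7 were higher after U1 AMO, against 40% and 5.33% of all lncRNAs tested. The median difference was -0.44 over the members and -0.58 over all. The largest named differences below 0 were those of 9430037O13Rik (-2.17), 9230114K14Rik (-1.71), 2900076A07Rik (-1.66), 6030442K20Rik (-1.55) and 5430416N02Rik (-1.53). 5430416N02Rik had 18.1, 14.3 and 17.4 FPKM after U1 AMO, against 45.1, 47.7 and 51.3 FPKM after U2 AMO. 6030442K20Rik did not pass after centring (adjusted p = 0.0824). Centring gave 8 lower and 16 higher, against 12.5% and 15.7% of all, and 31 members were called without U1 AMO replicate 1 and 29 without U2 AMO replicate 2.

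U1 and U2 AMO together, at the lower dose, gave counts close to U1 AMO on chromatin. Of 119 members, 67 fell and 2 rose, against 49.2% and 3.82% of all lncRNAs tested, and centring gave 8 lower and 11 higher, against 8.2% and 15% of all. 2900076A07Rik had 2.29, 1.97 and 2.16 FPKM after both, against 10.7, 9.17 and 11.3 FPKM after control AMO (-2.17 ± 0.19, adjusted p = 1.54e-05). 8430429K09Rik (-2.05) and 2500002B13Rik (-2.01) followed.

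Outside chromatin, U1 and U2 AMO together lowered 10 and raised 2 of 126 members in cytoplasm (5.48% and 2.74% of all lncRNAs tested; 9 and 5 members after centring, against 3.46% and 4.67% of all). They lowered 11 and raised 5 of 120 in nucleoplasm (6.83% and 7.88% of all lncRNAs tested; 14 and 6 members after centring, against 10.9% and 9.98% of all). 1810026B05Rik rose in nucleoplasm by 1.17 ± 0.29, and 2500002B13Rik (-1.74) and 2900076A07Rik (-1.68) fell there. In cytoplasm 6 members were called without control AMO replicate 1, 4 without control AMO replicate 3, 5 without U1+U2 AMO replicate 2 and 6 without its replicate 3. In nucleoplasm 7 were called without control AMO replicate 3, 6 without U1+U2 AMO replicate 1 and 5 without its replicate 2.

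Members also fell on chromatin after 4 h of IAA. Of 124 members tested, 62 fell and 1 rose, against 46.7% and 3.17% of all 1260 lncRNAs tested. The median log2 change was -0.85 over the members and -0.65 over all lncRNAs tested. After centring, 24 were lower and 17 higher, 19.4% and 13.7% of the members, against 16.7% and 21% of all lncRNAs. The count was between 48 and 64 with 1 library left out.

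2400006E01Rik had the largest named fall. This lncRNA lies on chr3:41500931-41528474, and it had 2.46, 1.81 and 1.65 FPKM on chromatin after 4 h of IAA, against 13.8, 11.5 and 15.8 FPKM without IAA. The groups were far apart, and the log2 change was -2.74 ± 0.21 (adjusted p = 4.19e-05; -1.998 after centring). In cytoplasm it had 8.81, 7.15 and 8.94 FPKM after IAA, against 7.84, 6.75 and 7.43 FPKM without IAA, values that overlap.

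2610509F24Rik had 3.93, 4.02 and 2.48 FPKM on chromatin after IAA, against 19.4, 16.9 and 15.2 FPKM without IAA (-2.30 ± 0.21, adjusted p = 4.65e-05). 2410003L11Rik had 4.25, 1.38 and 1.18 FPKM after IAA, against 9.05, 7.86 and 7.08 FPKM without IAA (-1.996 ± 0.39, adjusted p = 0.00196). Library 1 of the IAA group was the highest of its group for 2410003L11Rik but below every library without IAA. 4833412K13Rik (-1.77), 2810403D21Rik (-1.76), 6030442K20Rik (-1.72), 2500002B13Rik (-1.68) and 2810408I11Rik (-1.57) were the next named falls. 6030442K20Rik overlaps Dstyk and starts 303 bases from Rbbp5 on the other strand.

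Most members that fell in one experiment also fell in the other. Of 118 members tested in both, 47 were lower after U1 AMO and after IAA, 71.2% of the 66 that fell after U1 AMO and 75.8% of the 62 that fell after IAA. The same shares over all lncRNAs were 63.4% and 70.2%. No member was called in opposite directions, but only 3 members rose after U1 AMO and 1 after IAA, so few such calls were possible. Across the 118 members the log2 changes had a Pearson r of 0.44 and a Spearman rho of 0.43, a description across genes, which are not independent, and r over all 1245 lncRNAs tested in both was 0.45. The experiments share no libraries.

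**Figure D3:**
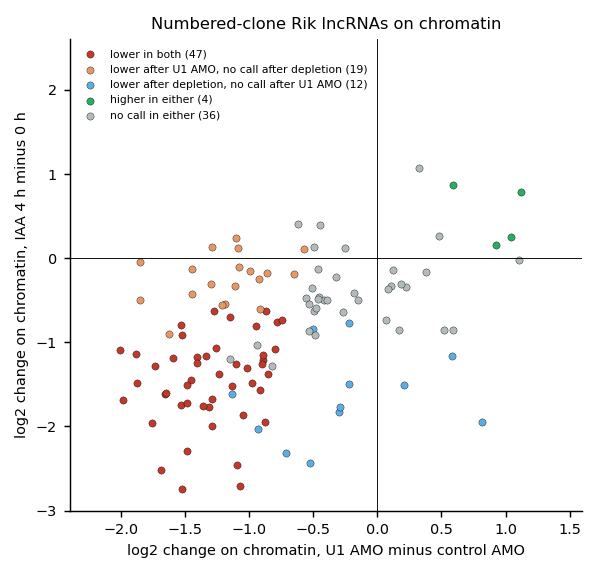
Log2 change on chromatin after 4 h IAA (vertical) against that after U1 AMO (horizontal) for the 118 members tested in both; colours give the calls. Most points lie below 0 on both axes, 47 are lower in both, and no point is called in opposite directions.

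Soluble fractions of the degron cells gave fewer calls. In nucleoplasm 17 of 123 members fell and 5 rose, against 10.8% and 5.21% of all lncRNAs tested, and after centring 12 were lower and 15 higher, against 7.44% and 12.2% of all. 2500002B13Rik fell there by 1.48 on the log2 scale and 5430416N02Rik rose by 0.67 ± 0.14. The count in nucleoplasm was 12, 6 and 13 without replicates 1, 2 and 3 of the group without IAA, and 12 without replicate 1 of the IAA group. In cytoplasm 4 rose and 2 fell of 123 (2.66% and 1.01% of all lncRNAs tested; 5 and 1 members after centring, against 3.03% and 0.826% of all). In whole cells 5 rose and 8 fell of 126 (5.31% and 6.5% of all lncRNAs tested; 5 and 5 members after centring, against 6.03% and 5.15% of all). Without 1 library the cytoplasm count was 1, 2 and 3 for replicates 1, 2 and 3 without IAA and 1 for replicates 1 and 2 with IAA. The whole cell count was 4, 6 and 4 for replicates 1, 2 and 3 without IAA and 7, 4 and 7 for those with IAA.

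A small set of members rose in the soluble fractions after IAA. 3110056K07Rik, which overlaps Psma3, had 4.63, 5.33 and 5.16 FPKM in cytoplasm after IAA, against 0.39, 0.30 and 0.76 FPKM without IAA. The lowest IAA library was above the highest library without IAA, and the log2 change was 3.22 ± 0.32 (adjusted p = 0.00359). It rose by 1.42 ± 0.28 in nucleoplasm and 1.49 ± 0.29 in whole cells, while its chromatin values overlapped (2.6, 2.08 and 2.00 FPKM after IAA, against 3.34, 2.66 and 1.83 FPKM without IAA). After U1 AMO, by contrast, its cytoplasmic values were 3.78, 5.34 and 5.44 FPKM, against 10.4, 6.66 and 7.72 FPKM after control AMO, which did not pass the test. The difference between the experiments was not tested.

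2810001G20Rik, which shares its promoter with Cox10, had 11.8, 10.0 and 10.3 FPKM in cytoplasm after IAA, against 4.24, 5.21 and 3.31 FPKM without IAA (1.33 ± 0.21, adjusted p = 0.0154). It rose by 1.35 ± 0.31 in nucleoplasm and 1.40 ± 0.31 in whole cells. 6330403K07Rik had 1.53, 1.21 and 1.94 FPKM in nucleoplasm after IAA, against 0.42, 0.35 and 0.46 FPKM without IAA (1.69 ± 0.26, adjusted p = 0.00604). In cytoplasm its values overlapped. These 3 members rose in whole cells, each with groups that did not overlap.

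2810410L24Rik and 2700038G22Rik were lower on chromatin and higher in cytoplasm. 2810410L24Rik had 3.79, 3.74 and 5.00 FPKM in cytoplasm after IAA, against 1.36, 1.62 and 1.61 FPKM without IAA (1.38 ± 0.22, adjusted p = 0.0154), and it fell by 1.52 on the log2 scale on chromatin. 2700038G22Rik had 10.9, 10.9 and 12.2 FPKM in cytoplasm after IAA, against 6.60, 5.99 and 7.11 FPKM without IAA (0.78 ± 0.15, adjusted p = 0.0339). It fell by 0.79 on chromatin, near the median log2 change of -0.65 over all lncRNAs tested there. Library 3 of its IAA chromatin group, at 5.39 FPKM, was well below libraries 1 and 2, at 10.2 and 11.7 FPKM.

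**Figure D4:**
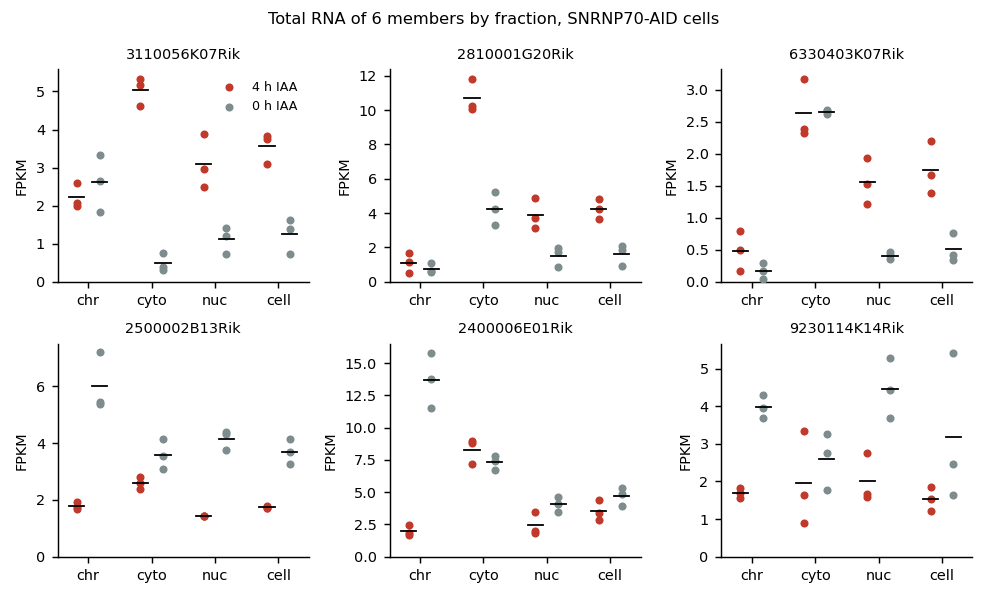
Total RNA level (FPKM) of 6 members in chromatin, cytoplasm, nucleoplasm and whole cells of SNRNP70-AID cells after 4 h IAA (red) and without IAA (grey); points are the 3 libraries of a group and bars are means. 3110056K07Rik in cytoplasm lies between 4.63 and 5.33 FPKM with IAA and between 0.30 and 0.76 FPKM without, and 2400006E01Rik falls on chromatin with overlapping cytoplasmic values.

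The shift asks whether the level on chromatin changed more than the soluble level. It was computed on the log2 scale by subtracting the average change of the cytoplasmic and nucleoplasmic fractions from the chromatin change. After U1 AMO it was below 0 for 25 of 126 members and above 0 for 0, against 19.7% and 0.0783% of all 1277 lncRNAs tested, with a median of -0.67 over the members and -0.66 over all. After IAA it was below 0 for 32 members and above 0 for 0, against 19.2% and 0.313%, with medians of -0.74 and -0.57. After centring, the counts were 0 below and 2 above after U1 AMO, and 9 below and 1 above after IAA. Over all lncRNAs, centring gave 0.235% below and 0.783% above after U1 AMO, and 3.52% and 1.8% after IAA.

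The largest named shifts after U1 AMO were those of 9430037O13Rik (-1.62), 2610509F24Rik (-1.56), 2400006E01Rik (-1.56), 6030442K20Rik (-1.54) and 5430416N02Rik (-1.45). After IAA they were those of 2400006E01Rik (-2.44), 6030442K20Rik (-1.995), 2610509F24Rik (-1.89), 2410003L11Rik (-1.55) and 2810403D21Rik (-1.41). 2400006E01Rik, 2610509F24Rik and 6030442K20Rik were named in both. After centring, 2400006E01Rik and 2610509F24Rik still passed in degron cells, whereas 6030442K20Rik (adjusted p = 0.151), 2410003L11Rik (adjusted p = 0.127) and 2810403D21Rik (adjusted p = 0.167) did not. The count after U1 AMO was 13 and 11 without control AMO chromatin replicates 1 and 3, and 12 and 15 without U1 AMO chromatin replicates 1 and 2. After IAA it was 20 without chromatin replicate 1 of the group without IAA and 21 without chromatin replicate 3 of the IAA group.

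PolyA RNA of the degron cells was measured in other libraries of the same line. On chromatin, of 96 members tested, 41 fell and 4 rose, against 36.8% and 8.96% of all 1217 lncRNAs tested, and after centring 21 were lower and 13 higher, against 16.5% and 19.1% of all. Of the 41, 33 also fell in total RNA, which shares the treatment but not the libraries. They were 80.5% of the polyA list and 53.2% of the total RNA list, and the same shares over all lncRNAs were 67.4% and 51.4%. These lists were not limited to lncRNAs measured in both kinds of RNA. Every member in the polyA data was also in the total RNA data, whereas some other lncRNAs were not. Some members in the total RNA data were absent from the polyA data. The shares of members and of all lncRNAs are therefore not like for like. 2410003L11Rik had 1.66, 3.00 and 1.45 FPKM in polyA RNA on chromatin after IAA, against 12.9, 13.4 and 13.6 FPKM without IAA (-2.71 ± 0.24, adjusted p = 9.94e-05). 2500002B13Rik had 3.98, 3.37 and 3.31 FPKM after IAA, against 16.4, 17.9 and 17.03 FPKM without IAA (-2.24 ± 0.10, adjusted p = 1.01e-05). Neither pair of groups came near to overlapping.

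The rises in polyA RNA on chromatin named by rule were 3110056K07Rik (1.39 ± 0.24), 4632427E13Rik (0.82 ± 0.10) and 2610020C07Rik. 4632427E13Rik had 5.54, 5.50 and 5.24 FPKM after IAA, against 3.18, 3.05 and 2.88 FPKM without IAA, while in total RNA on chromatin its groups overlapped. In whole cells 8 of 96 members rose and 5 fell in polyA RNA, against 13% and 7.05% of all lncRNAs tested, and 5 and 5 members after centring, against 9.43% and 8.02% of all. 3110056K07Rik had 12.96, 11.1 and 12.0 FPKM there after IAA, against 2.67, 2.45 and 4.01 FPKM without IAA (1.98 ± 0.19, adjusted p = 0.000188), and 2810001G20Rik rose by 1.02 ± 0.17. 2500002B13Rik (-1.20) and 2900076A07Rik (-0.81) fell. The whole cell count was 6 without replicate 2 of the group without IAA, and 6, 7 and 7 without replicates 1, 2 and 3 of the IAA group.

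Newly made RNA could be tested for 42 members on chromatin, 57 in cytoplasm and 59 in nucleoplasm. On chromatin 13 fell and 0 rose, against 33.6% and 5.67% of all 423 lncRNAs tested, and centring gave 6 lower and 9 higher, against 15.4% and 22.7% of all. The values are converted reads after spike-in scaling. 9230114K14Rik had the largest fall, with 76.0, 117 and 103 scaled reads on chromatin with IAA, against 719, 741 and 661 without IAA. The log2 change was -2.76 ± 0.18 (adjusted p = 1.64e-07). It also fell in cytoplasm (-2.49 ± 0.47) and in nucleoplasm (-2.71 ± 0.29), with separate groups in each. In total RNA after 4 h of IAA its log2 change on chromatin was -1.19 ± 0.19. It had 1.82, 1.57 and 1.69 FPKM after IAA there, against 3.69, 3.96 and 4.30 FPKM without IAA. New and total RNA differ in measure and in time with IAA, and the difference between them was not tested. Without chromatin replicate 2 of the group without IAA, 8 members were called.

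9330159M07Rik had 34.5, 21.5 and 28.1 scaled reads on chromatin with IAA, against 132, 174 and 148 without IAA (-2.15 ± 0.25, adjusted p = 1.97e-05). 1110003F10Rik (-1.28) and 1110002L01Rik (-1.17) were the next named falls. 1110002L01Rik starts 110 bases from Asxl2, a chromatin regulator gene, on the other strand.

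In the cytoplasm, 4 members rose and 4 fell in new RNA (6.62% and 4.02% of all lncRNAs tested; 4 and 6 members after centring, against 8.27% and 6.38% of all). In nucleoplasm 8 rose and 5 fell (17.8% and 9.59% of all lncRNAs tested; 8 and 6 members after centring, against 15.5% and 13.7% of all). 3110056K07Rik had 174, 193 and 204 scaled reads in cytoplasm with IAA, against 18.0, 0 and 69.2 without IAA (2.97 ± 0.71, adjusted p = 0.000774). 6330403K07Rik rose in nucleoplasm by 2.08 ± 0.45 and 2810001G20Rik by 1.36 ± 0.30. The limma call of 2810001G20Rik in cytoplasm (1.19 ± 0.40, adjusted p = 0.0326) came with groups that overlapped. Its values there were 727, 592 and 707 scaled reads with IAA, against 305, 701 and 112 without IAA. 1810058I24Rik, the micropeptide gene, had 652, 842 and 503 scaled reads in cytoplasm with IAA, against 1629, 2339 and 1532 without IAA (-1.46 ± 0.34, adjusted p = 0.000662). In other libraries of the same line, after 4 h of IAA, its total RNA in cytoplasm had groups that overlapped. The cytoplasm count was 5 without replicate 1 of the group without IAA, and 5, 5 and 4 without replicates 1, 2 and 3 of the IAA group.

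edgeR's quasi-likelihood test with TMM scaling on the reads recovered from these values called 1 higher and 8 lower of 38 members on chromatin, 2 higher and 6 lower of 41 in cytoplasm, and 6 higher and 7 lower of 46 in nucleoplasm. Over all lncRNAs in the same test the shares were 16.9% higher and 20.8% lower on chromatin, 11.6% and 12.9% in cytoplasm, and 18.2% and 16.9% in nucleoplasm. In this test the cytoplasmic rise of 3110056K07Rik (log2 change 2.47, adjusted p = 0.058) and the chromatin fall of 1110002L01Rik (-0.79, adjusted p = 0.0544) did not pass. The adjusted p of the 3110056K07Rik rise was 0.0706 with library totals and 0.0049 with the authors' scaling.

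Across the chromatin comparisons, 7 members were lower after U1 AMO and after IAA in total, polyA and newly made RNA. They were 1110002L01Rik, 1110003F10Rik, 2410003L11Rik, 2810408I11Rik, 2900076A07Rik, 9230114K14Rik and 9330159M07Rik. They were 18.4% of the 38 members tested in all 4 comparisons, and 67 of 328 lncRNAs (20.4%) did the same. The degron comparisons share the treatment and the line, and the list is a description. After centring, 0 of the 7 were lower in all 4 (7 of the 328 lncRNAs were), and only 1 of the 7 was still lower after U1 AMO. In limma on centred values, 1110002L01Rik (adjusted p = 0.114) and 2410003L11Rik (adjusted p = 0.0783) did not pass in new RNA. 9330159M07Rik (adjusted p = 0.993) did not pass in polyA RNA. 2900076A07Rik had 2.59, 0 and 1.56 scaled reads of new RNA on chromatin with IAA, against 26.0, 19.5 and 27.9 without IAA, few reads in either group.

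**Figure D5:**
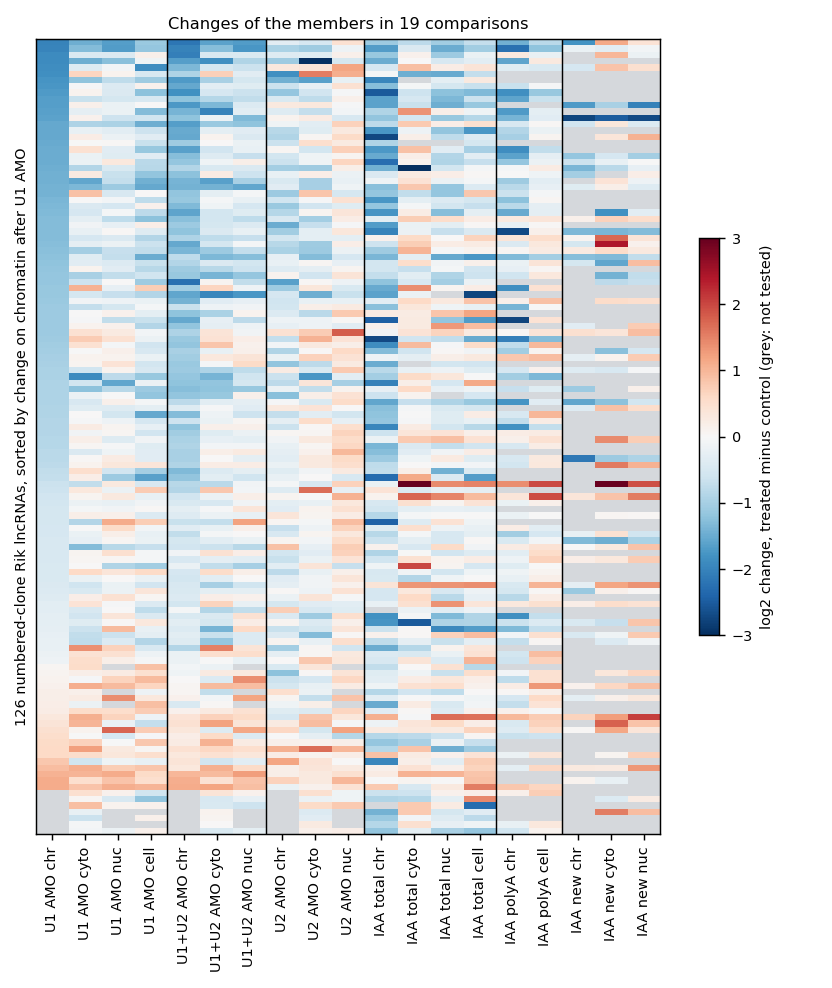
Log2 change of the 126 members in 19 comparisons (columns; chr chromatin, cyto cytoplasm, nuc nucleoplasm, cell whole cell; total, polyA and new RNA for IAA), sorted by the change on chromatin after U1 AMO; blue is lower and red is higher in the treated group, and grey was not tested. The chromatin columns of U1 AMO, of U1+U2 AMO and of IAA are mostly blue, and the cytoplasm columns are mixed.

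Split by the first digit of the clone name, with no test of the splits, the members that fell on chromatin after U1 AMO were 9 of 19 (0 or 1), 24 of 48 (2), 7 of 16 (3 or 4), 15 of 18 (5 or 6) and 11 of 18 (7 to 9), against the 51.8% of all lncRNAs. After IAA they were 12 of 20, 27 of 50, 5 of 17, 9 of 19 and 9 of 18 in the same order, against 46.7% of all. The members whose clone number belongs to a RIKEN embryonic stem cell library fell in 2 of 6 cases after U1 AMO and in 3 of 7 after IAA. Among the lncRNAs from testis clones, 26 of 69 fell on chromatin after U1 AMO and 31 of 67 did so after IAA, with median log2 changes of -0.58 and -0.74.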

How the data were processed

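RNA of mouse embryonic stem cells was sequenced by fraction. The lncRNA levels are FPKM values made by the authors, spike-in normalized for the 3 fractions per the file headers, with no spike-in scaling named for whole cells. Per the labels' protocols, the spike-ins were lacZ and mCherry for total RNA and ERCC for polyA RNA and SLAM-seq. The submitters' processing notes list CASAVA, TopHat, Cufflinks and mm10, among others. The SLAM-seq signal is a number of T-to-C reads scaled to the spike-in, per the file headers. It came out as whole reads for 100% of the values used (tolerance 0.1 read), with between 24927 and 227237 reads per library. The tables were normalized separately, so levels were not compared between them. FPKM values carry no depth.

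In all, 101 libraries were used, 47 antisense, 24 degron total, 12 polyA and 18 SLAM-seq. The antisense table has 1 column with no fraction in its name, which was not used. Entries that shared an identifier were left out (3, and 2 in polyA). Tests were run with limma 3.58.1 in R 4.3.3 on log2(value + pseudocount), with trend and Benjamini-Hochberg adjustment over all lncRNAs of a comparison, 1 fit per fraction and table with all its treatment groups. The shift and the chromatin against soluble comparison instead used 1 fit per table over chromatin, cytoplasm and nucleoplasm together. Fractions of the same replicate were treated there as independent libraries. Pseudocounts were 0.2 (antisense), 0.1 (degron total and polyA) and 8 (SLAM-seq), so folds of scarce lncRNAs are understated. A lncRNA was tested where at least 3 libraries of the fit reached the pseudocount, and the adjusted p threshold was 0.05. Tables were handled with Python 3.11.15, pandas 2.3.3 and numpy 2.4.6, and the fit was tested on simulated data. edgeR 4.0.16 was run on the recovered SLAM-seq reads as an alternative.

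Named members were the 8 largest rises and falls on chromatin, in the shift and at baseline, and the 4 largest elsewhere, among those past the threshold with groups that did not overlap and an average level no lower than that of the median lncRNA, plus the 10 most abundant. Other members, named for a feature of the annotation or a pattern over fractions, were chosen after their values were seen. The members and lists were chosen with earlier results of these data known. Same-numbered libraries of the antisense experiment deviated together on chromatin (correlation between 0.345 and 0.532 for U1 AMO and control AMO) and in nucleoplasm, every pair above 0.1, so the numbers were taken to pair them there and nowhere else. The main fits did not use this pairing, so their counts, standard errors and adjusted p-values are unpaired. It entered only through the replicate block, run as an alternative. RefSeq on GRCm38.p6 gave names, positions and promoters. The alternatives were a pseudocount 10 times higher, centring on library medians, no filter, only the groups compared, the replicate block and leaving out each library.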

Additional observations from a re-analysis of the deposited data

Results flagged for a closer look

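The change differed between fractions for a group of members, tested as the chromatin change less the soluble change in limma. After U1 AMO 25 of 126 members (19.8%) had such a difference, near the 19.7% of all lncRNAs with one below 0. After centring on library medians 0 members were below 0 and 2 above. Its log2 size was -1.62 for 9430037O13Rik, -1.56 for 2610509F24Rik, -1.56 for 2400006E01Rik, -1.54 for 6030442K20Rik and -1.45 for 5430416N02Rik. It was -1.45 for 8430429K09Rik, -1.34 for 9230114K14Rik and -1.26 for 4732416N19Rik.

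After 4 h of IAA 32 of 126 members (25.4%) had such a difference, against 19.2% of all lncRNAs. After centring 9 were below 0 and 1 above. It was -2.44 for 2400006E01Rik, -1.995 for 6030442K20Rik, -1.89 for 2610509F24Rik and -1.55 for 2410003L11Rik. The other named ones were 2810403D21Rik (-1.405), 2810429I04Rik (-1.365), 2700038G22Rik (-1.28) and 1110002L01Rik (-1.17). Each of these differences was below 0, so chromatin changed in the lower direction relative to the soluble fractions. 2700038G22Rik rose in cytoplasm after IAA (0.78, limma, adjusted p = 0.0339).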

How the results depend on the processing

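Over 24 comparisons, 206 of 291 alternative counts of called members were within 1.5 times the value reported. Of 2148 alternative values of the 62 named members, 1855 kept direction and call, 293 kept the direction and lost the call, and 0 reversed. The causes of the moves were not tested.

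With a 10 times higher pseudocount the count of called members was 35 on chromatin, 14 in cytoplasm, 5 in nucleoplasm and 10 in whole cells after U1 AMO. It was 7 in cytoplasm and 2 in nucleoplasm after U2 AMO, 36 on chromatin and 6 in nucleoplasm after both, 29 for U1 AMO against U2 AMO and 6 in SLAM-seq on chromatin. Centring gave 27 on chromatin and 18 in nucleoplasm after U1 AMO, and 1 in cytoplasm and 9 in nucleoplasm after U2 AMO. It gave 19 on chromatin after both, 24 for U1 AMO against U2 AMO, 2 for the shift after U1 AMO, 41 on degron chromatin and 10 for the degron shift. With only the groups compared in the fit, it was 4 in cytoplasm and 6 in whole cells after U1 AMO, 7 on chromatin and 0 in cytoplasm after U2 AMO, and 16 for the shift after U1 AMO. With the replicate block it was 25 on chromatin and 7 in nucleoplasm after U2 AMO, and 3 in cytoplasm and 7 in whole cells of degron cells, where the numbers are not shown to pair the libraries. The block left the other counts within 1.5 times.

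Leaving out 1 library at a time gave these ranges. After U1 AMO they were 59 to 66 on chromatin, 3 to 7 in cytoplasm, 5 to 12 in nucleoplasm and 4 to 14 in whole cells. After U2 AMO they were 2 to 14 on chromatin, 0 to 1 in cytoplasm and 2 to 7 in nucleoplasm. After both they were 61 to 68, 4 to 10 and 5 to 13 in the same fractions. They were 29 to 42 for U1 AMO against U2 AMO, 11 to 29 for the shift after U1 AMO and 57 to 68 for control AMO chromatin against soluble. In degron cells they were 48 to 64 on chromatin, 1 to 4 in cytoplasm, 6 to 18 in nucleoplasm, 4 to 7 in whole cells, 20 to 32 for the shift and 81 to 86 for chromatin against soluble without IAA. In polyA RNA they were 31 to 45 on chromatin and 6 to 13 in whole cells. In SLAM-seq they were 8 to 14 on chromatin, 4 to 8 in cytoplasm and 10 to 14 in nucleoplasm.

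edgeR on the recovered SLAM-seq reads called 9 members on chromatin, 8 in cytoplasm and 13 in nucleoplasm with TMM, and 10, 9 and 14 with library totals. With the authors' scaling, an alternative chosen after seeing the data, it called 13, 7 and 11. Scarce members are limited by the low FPKM, whose depth is unknown.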
